A study of Drosophila melanogaster with 9 samples.

Results

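This account follows 7 genes of chitin synthesis and modification, chosen by symbol from the authors' tables: kkv, exp, reb, serp, verm, Cda5 and ChLD3. They are 7 of 904 distinct genes listed there. Of those 904 genes, 710 were listed for Blimp-1 overexpression against control and 373 for Blimp-1 RNAi against control. All 7 chosen genes were listed for overexpression, and 2 of them, reb and verm, were also listed for RNAi. The other 5 have no values for RNAi in the tables used here. Stranded mRNA libraries, 3 per group, were sequenced from retinas dissected together with optic lobes of Drosophila melanogaster pupae, aged 48 h from puparium formation (APF). The temperature given was 25 °C for every sample. The groups were lGMR GAL4>UAS Blimp-1 (overexpression), lGMR GAL4>Blimp-1 RNAi (RNAi) and lGMR GAL4/+ (control), so every animal carried the driver, and both altered genotypes were set against the same 3 control libraries. The driver is active in the developing eye, while the dissected tissue also held optic lobe. The labels give no separate samples of retina and optic lobe.

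Chitin is a polymer of N-acetylglucosamine that is made by a synthase in the apical membrane and laid down outside the cell, where deacetylases modify it and chitin-binding proteins organise it. It is a structural part of insect cuticle, of the lining of the tracheal tubes and of the corneal lens of the eye, which cone and pigment cells secrete during pupal life. The product of Blimp-1 is a zinc finger repressor of transcription that acts in the response to the steroid hormone ecdysone.

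Values are normalized counts, that is reads per gene divided by 1 size factor per library, as deposited. Blimp-1 itself was at 23252, 9467 and 18277 normalized counts in the overexpression libraries, against 874, 888 and 748 in control, and it had no entry for RNAi. The tables hold only genes called by the authors (log2 fold change of 1 or more in either direction, adjusted p below 0.05), so that a difference from control is a condition of being listed. Passing a test against control therefore adds little here: limma on log2(normalized count + 1), fitted over all listed genes with Benjamini-Hochberg adjustment, called 100.0% of the 710 genes listed for overexpression and 100.0% of the 373 listed for RNAi at an adjusted p under 0.05. Reads falling in listed genes numbered 1322202 to 1918155 per overexpression library (710 genes), 954516 to 1318419 per RNAi library (373 genes) and 1189615 to 2306340 per control library (904 genes). Total depth is unknown.

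In Blimp-1 overexpression, 5 of the 7 members were lower than control, namely serp, kkv, Cda5, verm and exp, and 2 were higher, ChLD3 and reb. Over all 710 listed genes 27.6% were lower and 72.4% higher. Taken from the authors' deposited table, the median log2 fold change was -1.81 over the 7 members and 1.52 over all listed genes. The synthase gene and 3 of the 4 deacetylase genes stood among the minority of listed genes that fell.

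**Figure D1:**
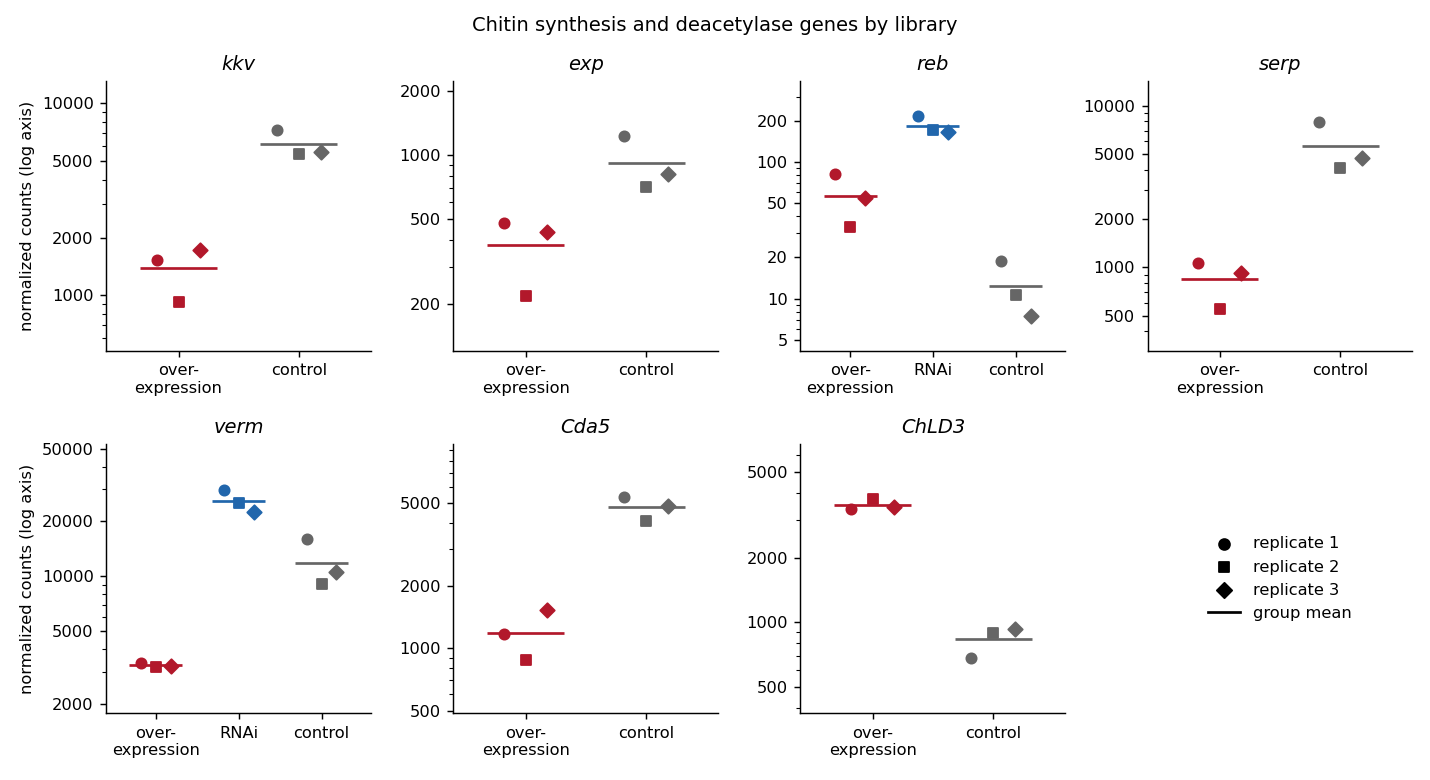
Normalized counts of the 7 members in each library, on log axes that differ between panels. Points are libraries, marked by replicate number, and bars are group means of 3 libraries; RNAi is shown for the 2 genes listed there. The overexpression and control points do not overlap in any panel, as in 99.7% of the 710 genes listed for overexpression, and reb and verm are highest in RNAi.

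The only chitin synthase gene among the members is kkv (FBgn0001311, dm6 chromosome 3R, 5378093 to 5392866), which encodes the enzyme that polymerises chitin in epidermis and trachea. It was at 1535, 925 and 1711 normalized counts in the overexpression libraries, against 7272, 5472 and 5615 in the control libraries. All 3 overexpression libraries lay below all 3 control libraries, and in 99.7% of the 710 listed genes the groups likewise did not overlap. The means were 1390 ± 413 in overexpression and 6119 ± 1000 in control (SD, n = 3 each), 4.40-fold lower in overexpression. By the authors' log2 fold change, kkv ranked 45 among the 196 lower genes.

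The genes exp and reb encode related proteins that Kkv needs for chitin deposition, and they act in an overlapping way in the trachea. They are neighbours on chromosome 2R (dm6, exp 11939557 to 11967435 on the plus strand and reb 11904323 to 11912779 on the minus strand), 26777 bases apart with no protein-coding gene lying wholly between them. Yet they moved in opposite directions in overexpression. The exp gene (FBgn0033668) was at 478, 218 and 438 normalized counts in overexpression, against 1233, 710.1 and 815 in control, 2.43-fold lower. It was near the authors' threshold, at rank 178 of 196 lower genes, with an adjusted p of 0.00271 in the authors' deposited table. The reb gene (FBgn0033667) was at 81.1, 33.2 and 54.1 normalized counts in overexpression, against 18.8, 10.6 and 7.48 in control, 4.57-fold higher. Its lowest overexpression library was still above its highest control library. These reb values rest on 89, 26 and 53 reads in overexpression and 28, 11 and 6 reads in control.

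Within a library, the ratio of reb to exp does not depend on how libraries were scaled. Per length of annotated exon it was 0.347, 0.312 and 0.253 in the overexpression libraries, against 0.0313, 0.0305 and 0.0188 in the control libraries. The ratios did not overlap, and their mean was 11.3-fold higher in overexpression. With reb listed as higher and exp as lower, the listing itself fixes the direction of this ratio and a large size. These ratios are therefore a description without a test. The authors' function entry was transcription factor for exp, and for reb in the RNAi table, while the overexpression table gave chitin deposition for reb, the role the gene is known for.

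The neighbouring genes serp and verm (dm6 chromosome 3L, minus strand, 19700977 to 19708015 and 19690033 to 19695260) encode secreted chitin deacetylases, known in the fly for limiting the length of tracheal tubes. Their annotated ends are 5716 bases apart. The serp gene (FBgn0260653) was at 1058, 547 and 916 normalized counts in overexpression, against 7889, 4138 and 4768 in control. It had the largest fall of the 7 members, 6.66-fold lower, at rank 23 of the 196 lower genes by the authors' log2 fold change. The verm gene (FBgn0261341) was at 3356, 3182 and 3207 normalized counts in overexpression, against 15918, 9065 and 10519.5 in control, 3.64-fold lower. The coefficient of variation of verm was 2.9% over the overexpression libraries and 30.5% over the control libraries.

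The fall was unequal between this pair of neighbours. The ratio of serp to verm per length was 0.294, 0.160 and 0.266 in the overexpression libraries, against 0.462, 0.425 and 0.422 in the control libraries. The groups did not overlap, and the mean ratio was 1.82-fold lower in overexpression (exact permutation test over 3 against 3 libraries, p = 0.1, the smallest possible).

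Cda5 and ChLD3 complete the deacetylase genes among the members. Cda5 (FBgn0051973, dm6 chromosome 2L, 25402 to 65404), a member of the chitin deacetylase family, was at 1169, 874 and 1520.4 normalized counts in overexpression, against 5369, 4087 and 4864 in control, 4.02-fold lower. ChLD3 (FBgn0032598, dm6 chromosome 2L, 16738850 to 16742610), a chitin deacetylase-like gene, went the other way. It was at 3353, 3752 and 3451 normalized counts in overexpression, against 681, 893 and 937 in control. The means were 3519 ± 208 in overexpression and 837 ± 137 in control (SD, n = 3 each), 4.20-fold higher. At its 3′ end 296 bases of exon, 13.1% of the total, overlap LSm7 on the opposite strand, and the sources used here do not say whether reads were counted by strand. For exp such an overlap, with PI31, covers 2.05% of exon.

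**Figure D2:**
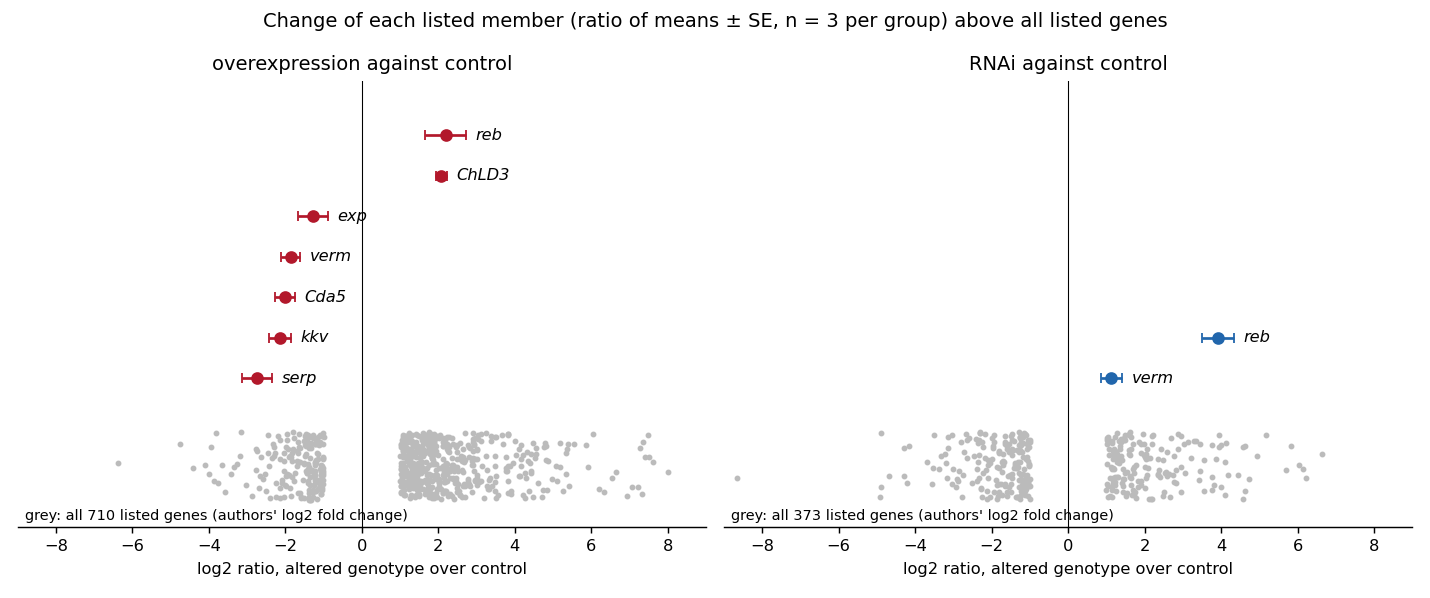
Log2 ratio of mean normalized counts, altered genotype over control, for each listed member (coloured points, bars ± SE of the log2 ratio, 3 libraries per group), above the authors' log2 fold changes of all listed genes (grey, placed at random heights). The 5 lower members lie between -2.74 and -1.28 in overexpression, and the gap around 0 in the grey points is the authors' threshold.

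By limma, the log2 change in overexpression was -2.73 ± 0.32 for serp, -2.17 ± 0.26 for kkv and -2.03 ± 0.24 for Cda5 (SE). It was -1.82 ± 0.23 for verm and -1.32 ± 0.35 for exp. For the members that rose it was 2.08 ± 0.20 for ChLD3 and 2.10 ± 0.46 for reb. Differences between the members' changes were not tested, beyond the ratios within libraries given here. In the authors' deposited table, adjusted p-values ran from 1.28e-19 for ChLD3 to 0.00271 for exp and reb.

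How firmly these changes can be read depends on the scaling of the libraries. Rescaling by TMM factors computed on the listed genes alone, most of which were higher, lowered the median log2 change of all listed genes by 1.52. Under that scaling the 5 falls were larger, ChLD3 stayed higher at a log2 change of 0.54, and reb, at 0.64, no longer passed (limma, adjusted p = 0.303, against 0.00137 under the authors' scaling). Ratios between genes of 1 library are free of this choice. Of these, Cda5 to kkv per length was 0.402, 0.499 and 0.469 in overexpression, against 0.390, 0.395 and 0.458 in control. These values overlapped, and the difference was not resolved (exact permutation test, p = 0.2). ChLD3 to kkv was 5.50, 10.2 and 5.08 in overexpression, against 0.236, 0.411 and 0.420 in control. The mean of that ratio was 19.5-fold higher in overexpression, with no overlap. ChLD3 was listed as higher and kkv as lower, so the listing itself fixes the direction of this ratio and a large size. Its values are a description without a test.

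With ChLD3 moving against the others, the makeup of the 4 deacetylase transcripts differed between the groups. Per kb of annotated exon, ChLD3 made up 43.3%, 50.3% and 45.1% of the summed level of serp, verm, Cda5 and ChLD3 in the overexpression libraries, against 2.83%, 6.33% and 5.76% in the control libraries. The share of verm was 40.7 ± 0.7% in overexpression and 62.2 ± 1.0% in control, and that of serp 9.79 ± 2.92% in overexpression and 27.2 ± 1.8% in control (SD, n = 3 each). Cda5 made up 3.26 ± 0.86% in overexpression and 5.68 ± 0.87% in control. No share overlapped between the groups. Since ChLD3 was listed as higher and the other 3 as lower, the listing itself fixes the direction of the ChLD3 share. The 4 shares are parts of 1 sum, so a larger ChLD3 share leaves less for verm, serp and Cda5 together. Their smaller shares are therefore not separate results, and all 4 shares are a description without a test. That ChLD3 stood above verm in every overexpression library holds per kb only: without division by length, ChLD3 made up 37.5%, 44.9% and 37.9% in overexpression and verm 37.6%, 38.1% and 35.3%, so that replicate 1 had them level. The summed level of the 4 genes was 3366 ± 64 normalized counts per kb in overexpression and 8013 ± 2312 in control, 2.38-fold lower (exact permutation test, p = 0.1, the smallest possible). Most of the control sum was verm and serp, both listed as lower, so the listing favours this fall and the test adds little. Other deacetylase genes, such as Cda4, were not listed for overexpression and are outside the sum.

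**Figure D3:**
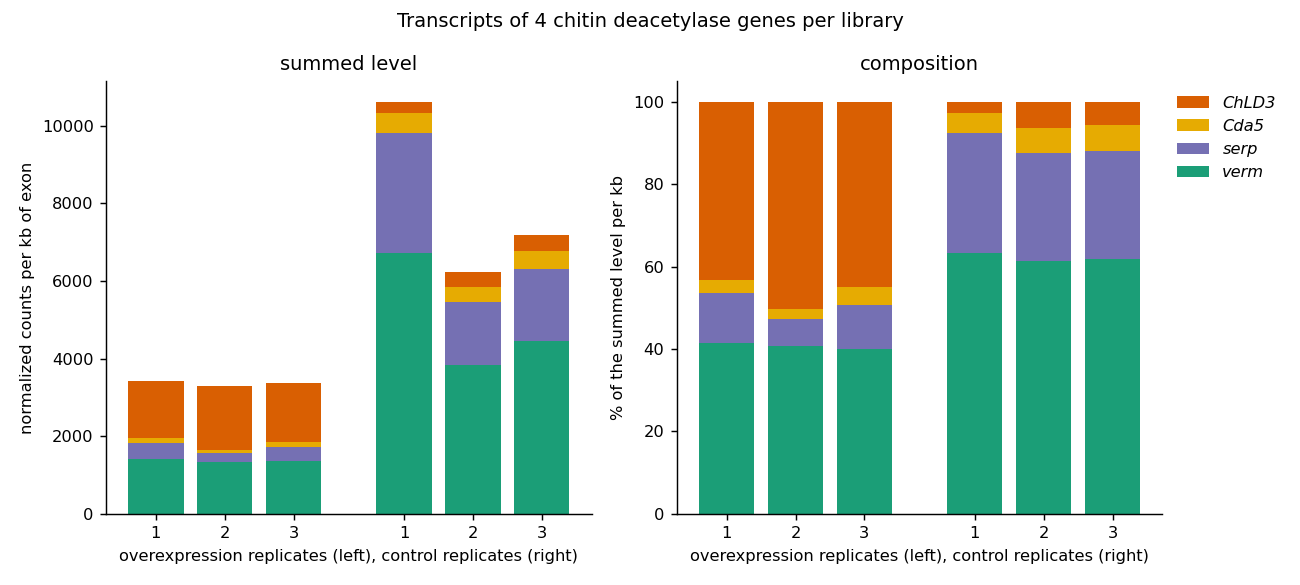
Levels of 4 chitin deacetylase genes in each overexpression and control library, as normalized counts per kb of annotated exon (left) and as a percentage of their sum (right). ChLD3 takes 43.3% to 50.3% of the sum in overexpression and 2.83% to 6.33% in control.

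Ranked by level per kb of exon in control, the order was verm (4998 ± 1525 normalized counts per kb), serp (2203 ± 790.5), kkv (1073 ± 175), Cda5 (442 ± 60), ChLD3 (370 ± 60), exp (203 ± 61) and reb (5.56 ± 2.65; SD, n = 3 for each). Cda5 and ChLD3 overlapped between libraries, and the other neighbours in that order did not. In overexpression the order was ChLD3 (1554 ± 92), verm (1372 ± 40), serp (331 ± 104), kkv (244 ± 72), Cda5 (110.0 ± 30.0), exp (83.4 ± 30.9) and reb (25.4 ± 10.9; SD, n = 3 for each). There serp overlapped with kkv and Cda5 with exp. In RNAi, verm stood at 10933 ± 1490 and reb at 83.6 ± 12.9 normalized counts per kb (SD, n = 3 for each). Length is the union of annotated exons, from 2211 bases for reb to 10793 for Cda5, and may exceed that of the transcripts present.

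In Blimp-1 RNAi, both listed members were higher than control, where 49.3% of the 373 listed genes were higher and 50.7% lower. The verm gene was at 29663, 25339 and 22669 normalized counts in RNAi, against 15918, 9065 and 10519.5 in control. All RNAi libraries were above all control libraries, as in 100.0% of the listed genes, and the means differed 2.19-fold. By the authors' log2 fold change it stood near the threshold, at rank 172 of 184 higher genes, with an adjusted p of 5.78e-06 in the authors' deposited table. The reb gene was at 218, 171 and 166 normalized counts in RNAi, against 18.8, 10.6 and 7.48 in control, 15.0-fold higher and at rank 25 of 184. It was supported by 234, 141 and 195 reads in RNAi. By limma the log2 changes were 3.89 ± 0.34 for reb and 1.16 ± 0.26 for verm (SE; adjusted p = 2.07e-06 and 0.00117).

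Overexpression can be set directly against RNAi for the 179 genes listed in both comparisons, which share the control libraries. For genes listed in opposite directions, such as verm, the listing itself fixes the direction of this contrast and a large size, so their values are a description without a test. For the 139 genes listed in 1 direction in both comparisons, such as reb, it does not fix the direction. In this contrast 63.7% of the 179 genes passed by limma, 26.3% as lower and 37.4% as higher in overexpression. Of the 139 genes 53.2% passed, 24.5% as lower and 28.8% as higher. The verm gene averaged 3248 ± 94 normalized counts in overexpression and 25890 ± 3529 in RNAi (SD, n = 3 each), 7.97-fold lower in overexpression. The reb gene averaged 56.1 ± 24.0 in overexpression and 184.8 ± 28.5 in RNAi (SD, n = 3 each), 3.29-fold lower in overexpression, with a log2 difference of -1.78 ± 0.37 (SE; limma, adjusted p = 0.000338). So reb lay above control in both altered genotypes and further above it in RNAi. Being higher in both was the commonest pattern among the 179 genes, at 43.6%, while 7.26% were, like verm, lower in overexpression and higher in RNAi.

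**Figure D4:**
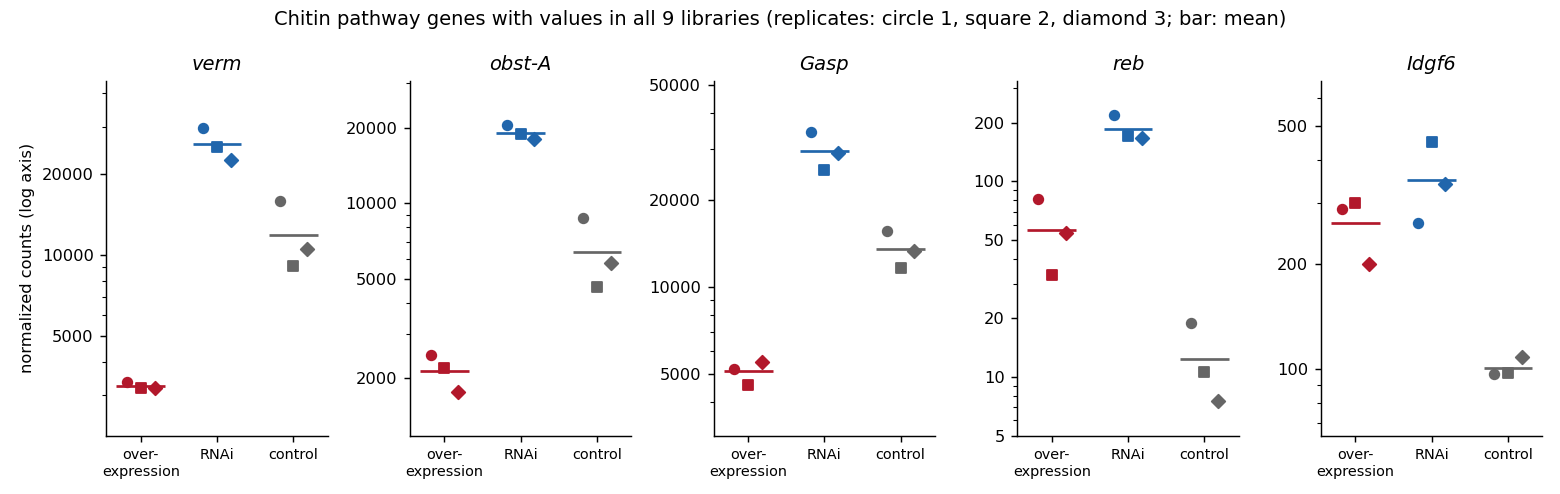
Normalized counts, on log axes, of the chitin pathway genes with values in all 9 libraries. Points are libraries and bars are group means; verm, obst-A and Gasp are lowest in overexpression and highest in RNAi, and reb and Idgf6 are above control in both altered genotypes.

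Of a list of 36 other genes of the chitin pathway, 34 matched the annotation by symbol or synonym. Their values were looked up by symbol alone. The list covered sugar and UDP-N-acetylglucosamine supply, the second chitin synthase, assembly, other deacetylases, and chitinases with imaginal disc growth factors. Of the 36, 5 were listed for overexpression, 2 higher and 3 lower, and 6 for RNAi, 4 higher and 2 lower. None of the 9 supply genes, and not Chs2, the other chitin synthase gene, was listed under its symbol in either comparison. Entries under another name were not searched for. Among deacetylase genes outside the members, Cda4 was listed for RNAi only, at 2663 ± 398 normalized counts in RNAi and 1280.5 ± 38.9 in control (SD, n = 3 each), 2.08-fold higher. Cht7, a chitinase family gene, was 3.95-fold lower in overexpression, at 3088 ± 656 against 12188 ± 1060 in control (SD, n = 3 each), a fall close to that of kkv. Cht10, another chitinase gene, was 3.28-fold higher in overexpression with a wide spread, at 3339 ± 1177 against 1018 ± 572 in control (SD, n = 3 each).

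The chitin-binding genes obst-A and Gasp had values in all 9 libraries and the same order of groups as verm. The obst-A gene averaged 2148 ± 352 normalized counts in overexpression and 19103 ± 1227 in RNAi, with 6357 ± 2107 in control (SD, n = 3 each). Gasp averaged 5110.4 ± 477.5 in overexpression and 29659 ± 4555 in RNAi, with 13543 ± 2032 in control (SD, n = 3 each). Overexpression lay 8.89-fold below RNAi for obst-A and 5.80-fold below it for Gasp, a direction that their listing in opposite directions fixes. Idgf6, an imaginal disc growth factor related to chitinases, was like reb above control in both, at 263 ± 54 in overexpression and 350.1 ± 92.8 in RNAi, with 101.0 ± 6.5 in control (SD, n = 3 each). For Idgf6 overexpression and RNAi were not told apart (log2 difference -0.40 ± 0.28, SE; limma, adjusted p = 0.22).

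Several of these genes are also expressed in trachea, and serp and verm are best known there. Of 7 tracheal marker genes looked up, Gasp and obst-A were listed, and trh and btl, which define tracheal cells, were listed in neither comparison, so their levels are not known here. The summed level of Gasp and obst-A was 6787 to 7688 normalized counts in overexpression libraries and 44320 to 54916.5 in RNAi libraries, against 16265 to 24389 in control libraries. Of 9 symbols looked up as cone and pigment cell markers, ninaD and santa-maria were higher in overexpression, and ninaD and h in RNAi. The other symbols, among them pros, ct and Crys, were listed in neither comparison, and a Bar gene appears under different names. Whether ninaD, santa-maria and h mark cone or pigment cells in this tissue was not examined. Of 8 optic lobe neuron markers 3 were listed, Rim and a pair of acetylcholine receptor subunit genes, all lower in overexpression. Of 14 photoreceptor markers 7 were listed for overexpression, 4 higher and 3 lower, with a sum of 60076 to 74094 normalized counts in overexpression libraries against 12126 to 16008 in control libraries. Most of that sum was Arr2, at 54505 ± 6241 in overexpression and 3458 ± 334 in control (SD, n = 3 each). The 4 listed of 8 hemocyte markers summed to 937 to 1528 in overexpression and 224 to 317 in control, and the 3 listed of 6 glia markers to 10912 to 13935 in overexpression and 4769.8 to 5222 in control. Most of the glia sum was nrv2, at 8355 ± 1586 in overexpression and 3608 ± 63 in control (SD, n = 3 each). Of 6 bristle and epidermis markers 3 were listed for overexpression, dyl and jv lower and sha higher, with a sum of 5967 to 8841 in overexpression and 19378 to 21506 in control. Nearly all of that sum was dyl, at 7380 ± 1505 in overexpression and 19800 ± 1114 in control (SD, n = 3 each). In RNAi the listed markers that fell were dyl, which was 2.06-fold lower than control, the hemocyte marker Ppn, 3.27-fold lower, and the photoreceptor marker chp, at 11832 ± 4879 normalized counts in RNAi and 26735.5 ± 1667 in control (SD, n = 3 each). The part of these in the changes of the members was not tested, and in bulk tissue fewer cells of a type and less RNA per cell cannot be told apart.

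Within a group, most members shared the library of their lowest or highest value, as many of the lower listed genes did. Overexpression replicate 2 held the lowest value of 6 of the 7 members, all but ChLD3, of which it held the highest. Over the 707 listed genes with reads in overexpression, that replicate was lowest in 33.1% and highest in 50.5%, and over the 193 lower genes it was lowest in 58.5%. It was also the library with the least Blimp-1, at 9467 normalized counts. Control replicate 1 held the highest value of 6 of the 7 members and the lowest of ChLD3, and it was highest in 35.9% of the 708 listed genes with reads in control and in 61.2% of the 196 lower genes. ChLD3 lay on the other side of its group mean from all 6 other members in replicates 1 and 2 of both groups, and not in replicate 3 of either. Without overexpression replicate 2 the folds were 3.77 lower for kkv, 5.67 for serp, 3.55 for Cda5, 3.61 for verm and 2.01 for exp, and 4.06 higher for ChLD3 and 5.50 for reb. Without control replicate 1 they were 3.99 lower for kkv, 5.30 for serp, 3.77 for Cda5, 3.01 for verm and 2.02 for exp, and 3.85 higher for ChLD3 and 6.22 for reb. All 7 still passed by limma in both cases, as did all 710 listed genes. Overexpression replicate 2 also had the fewest reads in listed genes of its group, at 1322202. Control replicate 1 had the most of its group, at 2306340. What set these libraries apart was not tested.

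**Figure D5:**
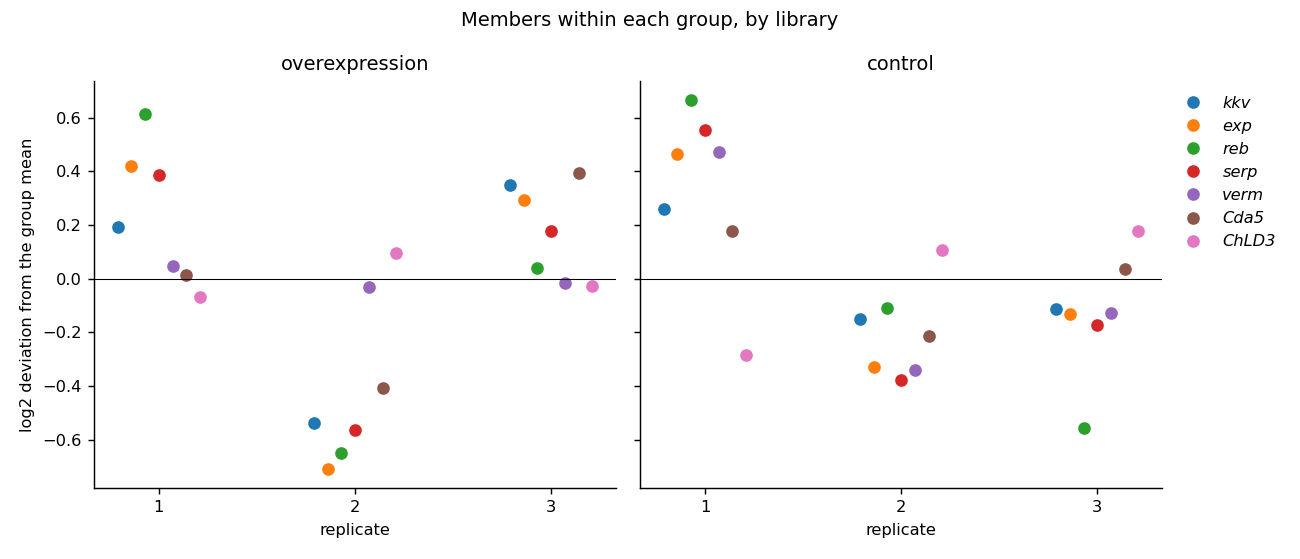
Deviation of each member from its group mean, on the log2 scale of normalized count + 1, in the 3 overexpression libraries (left) and the 3 control libraries (right). In overexpression replicate 2 every member except ChLD3 lies below its group mean, and in control replicate 1 every member except ChLD3 lies above it.

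For each member the 3 listed genes of closest pattern were found by the root mean square difference of log2(normalized count + 1), relative to the control mean, over the 6 libraries of a comparison. In overexpression 675 other genes averaging 20 normalized counts or more were searched, and 358 in RNAi. For kkv these were CG15080 (0.09), Cda5 (0.15) and CG32365 (0.16), and for Cda5 they were Cht7 (0.11), CG15080 (0.15) and kkv (0.15). So kkv, Cda5 and CG15080 were close to each other, and Cht7 lay closest to Cda5. For verm they were Cad86C (0.13), CG2556 (0.19) and Pen (0.24), for serp ZnT33D (0.17), CG43078 (0.21) and CG34382 (0.28), and for exp kek3 (0.09), sona (0.10) and CG9095 (0.10). For ChLD3 they were MP1 (0.11), CG31918 (0.15) and Gel (0.15), and for reb CG11073 (0.24), CG43861 (0.25) and bdl (0.26). In RNAi the closest to verm were CG6847 (0.10), CG15473 (0.14) and Gasp (0.16), and to reb CG17777 (0.26), Cpr92F (0.30) and CG13038 (0.30). These values describe likeness over shared libraries and carry no test.

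The authors' text annotations differ among the members. The stage of peak expression was given as 12 h prepupa for kkv, verm and reb, as 2 d pupa, the age of the samples, for exp and ChLD3, and as 3 d pupa for Cda5, and it was blank for serp. Genes with the 2 d entry therefore include 1 member that fell and 1 that rose in overexpression, and genes with the 12 h prepupa entry both kkv, which fell, and reb, which rose. In the RNAi table verm carried a mark for Blimp-1 sites and none for Slbo sites, and reb carried neither. Blimp-1 marks stood beside 43.5% of the 184 genes higher in RNAi and 42.4% of all 373, so the mark on verm is common among listed genes. The sources used here do not say how sites and stages were assigned.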

How the data were processed

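The submitters' processing notes name DESeq2, bedtools 2.26.0, Subread 1.6.3, Picard 2.18.20 and STAR 2.6.1d, and build dm6. Roles and settings were not given in the sources used here. Deposited were 4 tables of genes called by the authors, with normalized counts per library, a signal in which every nonzero value was a whole multiple of 1 step per library (100% within 0.02 reads). The deposited log2 fold changes, control over altered genotype per the file headers, were turned around. Adjusted p-values are those in the deposited tables. Columns were matched to samples by group and number. Folds are ratios of means without a pseudocount, and SEs of log2 ratios come from both groups' SDs. The main test was limma 3.58.1 (R 4.3.3) with a mean-variance trend on log2(normalized count + 1), two-sided, checked on simulated data. edgeR 4.0.16 ran on recovered reads as an alternative. Symbols altered in 2 entries were restored by identifier. Pathway and marker genes were looked up by symbol alone. Positions and exon lengths come from the Ensembl BDGP6.54 annotation, whose coordinates are those of dm6. Members, gene lists and the rule for named genes (the 7 members, the 36 pathway genes, cell type markers, Blimp-1 and the 3 closest patterns per member) were chosen with earlier results of these data known. The series' design text calls the replicates biological. Exact permutation tests are two-sided.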

Additional observations from a re-analysis of the deposited data

How the results depend on the processing

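Every member kept its direction under each alternative for its log2 change: pseudocounts of 5 and 0.1, TMM scaling, a mean of at least 20 normalized counts, edgeR's quasi-likelihood test on recovered reads, no mean-variance trend, a replicate block and leaving out each library. Of 149 such values 148 kept their side of the threshold. The exception was reb in overexpression under TMM scaling, at a log2 change of 0.64 (limma, adjusted p = 0.303). Over its alternatives the adjusted p of reb ran from 0.000255 to 0.303. Keeping direction and passing against control add little, because the genes were listed for such a difference. Outside TMM scaling, at least 709 of the 710 genes listed for overexpression passed wherever all were fitted, as did all 373 listed for RNAi. For verm in overexpression against RNAi the listing likewise fixes the direction. TMM scaling cut the genes called in overexpression from 710 to 401 and the share of higher ones from 72.4% to 51.1%; it was computed on selected genes, mostly higher, which pulls their median toward 0. Without division by length, ChLD3 made up 40.1% of the 4 deacetylase genes in overexpression in place of 46.2% (chosen after seeing the data). Leaving out each library, folds ran from 12.6 to 20.5 for reb in RNAi and from 3.55 to 6.22 for reb in overexpression, whose few control reads limit it.

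Same-numbered libraries did not deviate together throughout. Correlations of their deviations across listed genes were 0.42, 0.21 and -0.00078 in overexpression and 0.33, 0.081 and 0.051 in RNAi, and not every library correlated best with its own number, so the numbers are not taken to pair the samples. With the replicate number as a block, all 7 members in overexpression and both in RNAi passed, with 710 and 373 genes called, and 120 of the 179 in the direct contrast in place of 114.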
